A study of Mus musculus with 14 samples.

Results

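The lysosome and autophagy genes described here were 61 of the 15119 genes measured in green fluorescent protein (GFP)-positive precursor cells of the adult mouse dentate gyrus. They were chosen by mouse gene symbol: the cathepsins, the subunits of the vacuolar proton pump, the LAMP proteins, the ATG genes with their MAP1LC3 and GABARAP relatives, and Becn1, Sqstm1, Tfeb, Tfe3, Laptm4a, Laptm5, Grn and Psap. The rule matched 79 symbols of the mouse annotation, of which 18 (Ctse, Ctsg, Ctsw, Lamp3 and Lamp5 among them) were not analysed here. All classes share the transgene of B6.Cg-Tg(Nes-EGFP)1Yamm mice, a reporter driven by regulatory elements of the Nestin gene, and none was treated. A sorter divided GFP-positive cells by dihydroethidium, a dye that becomes fluorescent when reactive oxygen species (ROS) oxidise it, into GFP+ROS+ (5 libraries), GFP+ROS++ (5 libraries) and GFP+ROS+++ (4 libraries), here called ROS+, ROS++ and ROS+++. The labels name no separate animals, ages in weeks, sexes or sorting days, so that p-values cover only how far these samples differ from each other, and part of that may be technical. Each class is a sort gate on cells from dissociated tissue and can hold more than 1 cell type.

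Lysosomes are acidic organelles in which cathepsins and other hydrolases break down material delivered by endocytosis, phagocytosis and autophagy. The vacuolar proton pump acidifies them: its cytosolic V1 sector splits ATP, and its membrane V0 sector carries the protons. In autophagy a double membrane forms around cytoplasmic cargo, ATG8 proteins (the LC3 and GABARAP families) are attached to its lipid by the ATG conjugation enzymes, and the closed vesicle fuses with a lysosome. In adult neural stem cells, lysosomal activity has been linked to quiescence, and microglia, the resident macrophages of the brain, carry large amounts of several cathepsins.

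Many lysosomal genes hold an E-box motif near their start that the transcription factors TFEB and TFE3 can bind. RefSeq promoter windows of 300 bases (250 before and 50 after the annotated start, GRCm38.p6) matched 49 of the 61 members. The palindrome TCACGTGA, searched on both strands, was in 6 of these 49 genes (12.2%), against 2.10% of the 10884 listed genes with a window and 1.12% of all 27025 genes with a window. The nested motif TCACGTG was in 10 members (20.4%, against 6.81% and 4.29%), and the core CACGTG, contained in both longer motifs, in 13 members (26.5%, against 11.4% and 8.09%). The stretches around the palindrome are printed here because they come from all 3 arms of the gene set, a cathepsin pair, 3 pump subunits and an autophagy enzyme. In ROS+++ against ROS+, RNA of Ctsa and Ctsd was higher and that of Atp6v1a lower under every scaling of the libraries. Differences of Atp6v0d1, Atp6v0e and Atg3 depended on the scaling or on single libraries, as given below. Capitals mark TCACGTGA, and each line runs 5′ to 3′ on the gene's strand.
Ctsa, chr2:164833734-164833784, plus strand: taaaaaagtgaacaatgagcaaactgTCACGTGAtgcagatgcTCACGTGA
Ctsd, chr7:142387893-142387952, minus strand: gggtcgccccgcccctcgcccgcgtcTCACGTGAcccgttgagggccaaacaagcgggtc
Atp6v0d1, chr8:105566061-105566094, minus strand: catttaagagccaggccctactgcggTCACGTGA
Atp6v0e, chr17:26676372-26676405, plus strand: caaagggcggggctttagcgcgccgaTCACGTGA
Atp6v1a, chr16:44139358-44139417, minus strand: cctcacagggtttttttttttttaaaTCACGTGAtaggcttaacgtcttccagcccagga
Atg3, chr16:45158731-45158790, plus strand: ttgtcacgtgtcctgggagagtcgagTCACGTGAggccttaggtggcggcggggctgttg
In Ctsa the motif occurred at 2 places, starting 13 bases before and at base 5 after the annotated start. A match is a description of these letters and not a measured binding site.

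Recovered reads per library were 20832009 to 25313902, 18325361 to 23454022 and 12704227 to 20998589 in ROS+, ROS++ and ROS+++, so that 3 reads correspond to 0.119 to 0.236 CPM (read counts scaled by the library total). The classes differed widely in cell type markers. The 12 neuronal precursor markers summed to 11461 to 16959, 985.6 to 2409 and 39.6 to 205 CPM in ROS+, ROS++ and ROS+++. The 12 radial glia-like and astrocyte markers summed to 1297 to 1935, 5910 to 8436 and 2479 to 7181 CPM. The 13 mural cell markers summed to 201 to 726, 8415 to 25000 and 54886 to 63663 CPM, and 17 of 18 microglia and macrophage markers to 4.22 to 18.2, 1133 to 3002 and 843 to 3473 CPM. The 10 endothelial markers summed to 108 to 297, 33.3 to 344 and 389 to 712 CPM, with every ROS+++ library above all others. Of this sum, Emcn alone held 201 to 306 CPM in ROS+++ and at most 114 CPM elsewhere. Pecam1, Cdh5 and Cldn5 overlapped between all classes. At an adjusted p under 0.05 (limma), 4 of the 10 were higher in ROS+++ than in ROS+ and 2 than in ROS++, beside 19.2% and 9.89% of all genes. The 8 myelinating oligodendrocyte markers summed to 1861 to 5246, 1918 to 10111 and 471 to 634 CPM in ROS+, ROS++ and ROS+++. None of the markers was at 0 in every library of a class. Against the label of Nestin-positive precursor cells, neuronal precursor markers were therefore at their lowest and mural markers at their highest in ROS+++.

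Of the 61 members, 34 differed among the 3 classes in limma's F-test (55.7%), against 61.5% of the 15102 genes tested. The share of members that differed was thus close to that of all genes, and the direction depended on the role of the gene. In ROS++ against ROS+, 18 members were called higher and 5 lower at an adjusted p under 0.05 (37.7% in all), where 16.4% of all tested genes were higher and 13.2% lower (29.6% in all). The lower count was 3 without ROS+ replicate 5 and 8 without ROS++ replicate 5. From ROS+ to ROS+++, 18 members were called higher and 16 lower (55.7% in all), beside 19.2% and 40.0% of all genes (59.2% in all). Between ROS+++ and ROS++, 6 were called higher and 11 lower (27.9% in all), beside 9.89% and 29.2% of all genes (39.1% in all), and the libraries did not overlap for 5 higher and 8 lower members, beside 27.0% of all genes. These comparisons share libraries. All 10 cathepsins that moved between ROS+ and the other classes were higher there, whereas the pump subunits and ATG genes called in ROS+++ against ROS+ were mostly lower with library totals, a direction that did not hold for the ATG genes with median-of-ratios factors.

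ROS+++ libraries were shifted as a whole, which bears on each lower call in this class. The median change of all tested genes was -0.44 (log2) in ROS+++ against ROS+ and -0.34 against ROS++. Dividing by median-of-ratios factors in place of library totals moved these medians to -0.04 and 0.03, and upper-quartile factors moved them to -0.17 and -0.09. Higher calls made up 32.5% of all calls in ROS+++ against ROS+ with library totals, 50.6% with median-of-ratios and 43.9% with upper-quartile factors. Against ROS++ they made up 25.3%, 52.2% and 42.4%. With median-of-ratios factors 24 of the 61 members were called higher and 7 lower in ROS+++ against ROS+, beside 26.5% and 25.9% of all genes. The median of all genes in ROS++ against ROS+ was -0.03 with library totals and moved by less than 0.05 under either factor.

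**Figure D1:**
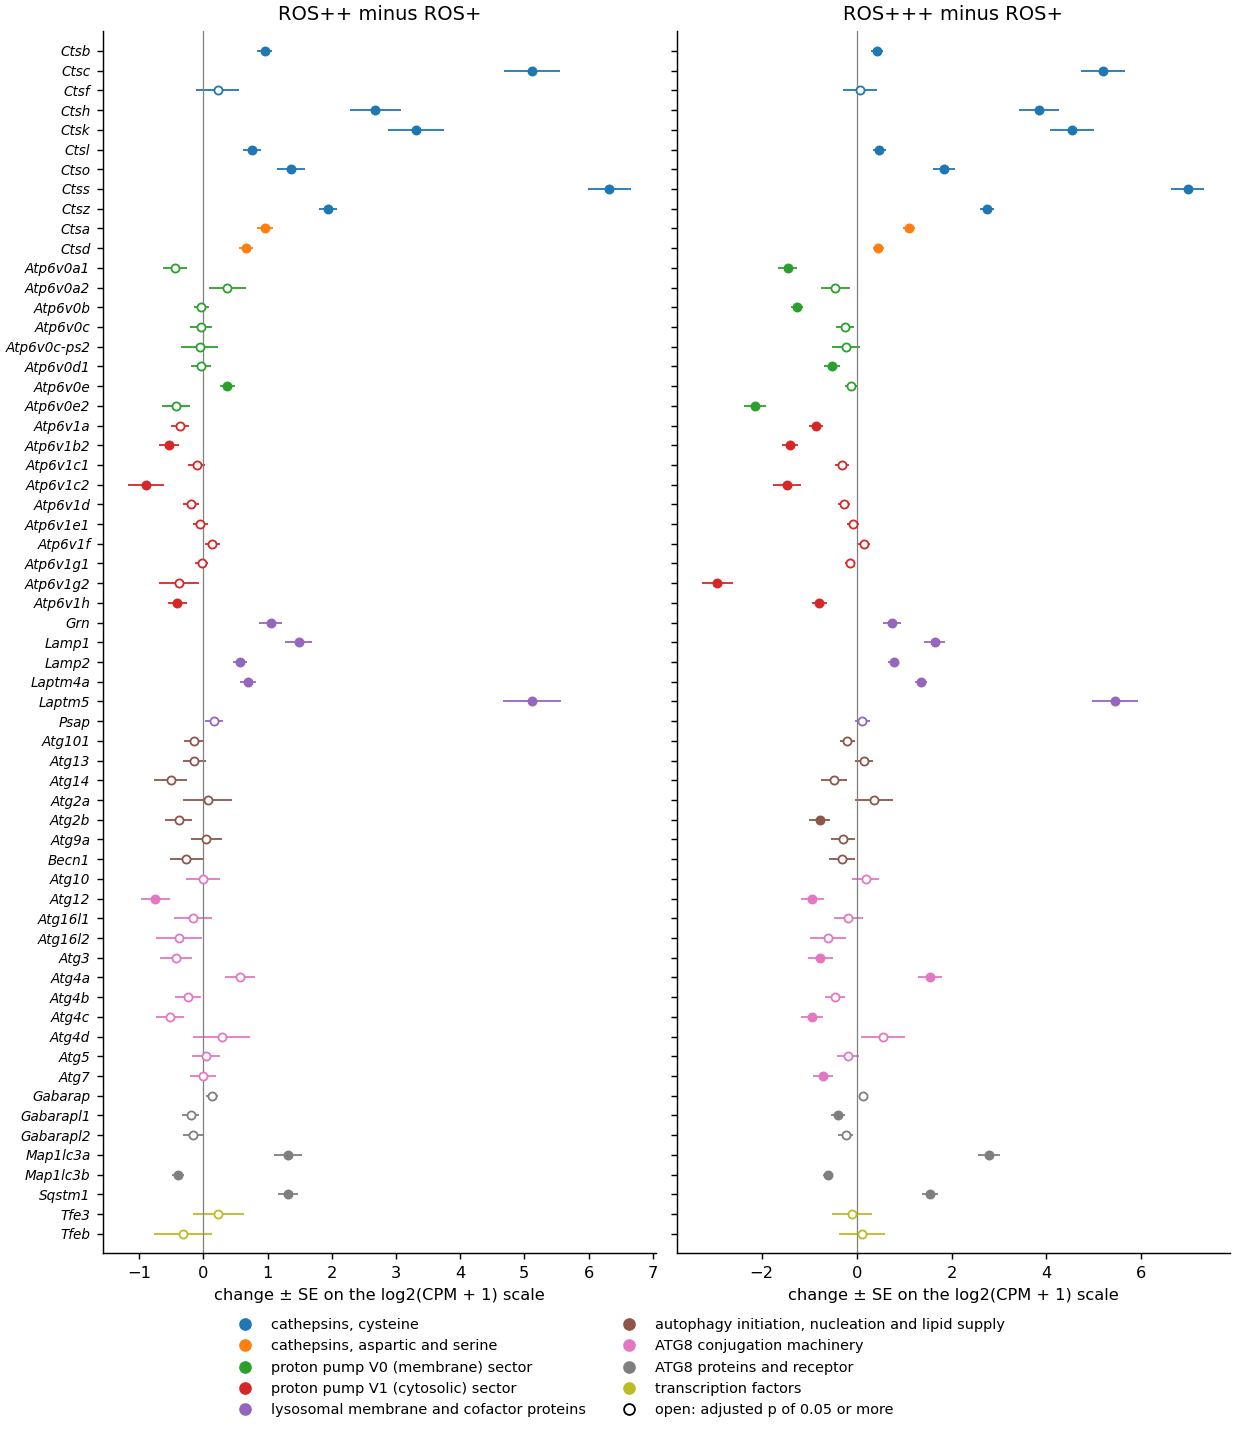
Change of each of the 61 members in ROS++ (left) and ROS+++ (right) against ROS+, on the log2(CPM + 1) scale with library totals, points with ± SE from limma, coloured by role. Filled points have an adjusted p under 0.05. All 11 cathepsins lie to the right of 0 in both panels, 10 of them called in each, beside 16.4% and 19.2% of all genes called higher. In the right panel 9 of 18 pump subunits were called lower, beside 40.0% of all genes. With median-of-ratios factors 7 were lower and 3 others higher, beside 25.9% and 26.5% of all genes.

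Cathepsins, the proteases of the lysosome, were higher in both ROS-rich classes. Of 11 measured, 10 rose in ROS++ and 10 in ROS+++ against ROS+, with a median log2 change over all 11 of 1.36 and 1.84 beside medians of -0.03 and -0.44 over all genes. The exception in both was Ctsf, a cysteine cathepsin, at 51.2 ± 18.4 CPM (SD, n = 5), 65.6 ± 37.4 (n = 5) and 53.7 ± 18.0 (n = 4). The libraries of ROS++ and ROS+ did not overlap for 10 cathepsins (23.0% of all genes did not overlap) and those of ROS+++ and ROS+ for 8 (50.0% of all genes). The 10 higher calls in each comparison were made under every scaling. In these bulk samples, fewer cells of a type and less RNA per cell cannot be told apart.

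The largest changes were in 4 cysteine cathepsins that were scarce in ROS+, with means under 10 CPM. Ctss (ENSMUSG00000038642, chr3:95526786-95556403, plus strand) encodes cathepsin S, a protease of antigen-presenting cells and microglia that stays active at neutral pH. It was at 1.34, 1.49, 0.0446, 0.810 and 0.704 CPM in the 5 ROS+ libraries, at 270.4, 91.3, 174, 107 and 129 in ROS++ and at 192, 328, 334 and 122 in ROS+++. Every ROS++ and ROS+++ library lay above every ROS+ library, while ROS++ and ROS+++ overlapped. The limma change was 6.32 ± 0.34 (adjusted p = 4.27e-10) in ROS++ and 6.97 ± 0.36 (adjusted p = 4.59e-11) in ROS+++ against ROS+, and the means stood 176-fold and 278-fold above ROS+. Between ROS+++ and ROS++ it was 0.65 ± 0.36 (adjusted p = 0.158) and not called, except with median-of-ratios factors or without ROS+++ replicate 4 (adjusted p down to 0.0302).

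Ctsc (ENSMUSG00000030560, chr7:88278085-88310888, plus strand) encodes cathepsin C, the dipeptidyl peptidase that activates serine proteases of immune cells. Its levels were 6.99, 6.91, 11.6, 3.37 and 2.02 CPM in ROS+, 428, 130.1, 256, 294 and 126 in ROS++ and 116, 372, 363 and 186 in ROS+++. ROS+ lay below both other classes, which covered the same range. The changes against ROS+ were 5.12 ± 0.44 (adjusted p = 3.00e-07) and 5.20 ± 0.46 (adjusted p = 1.16e-07) in limma. Ctsk (ENSMUSG00000028111, chr3:95499256-95509362, plus strand), the collagen-degrading cathepsin K of osteoclasts and fibroblasts, was at 2.73, 0.384, 0, 0.469 and 0 CPM in ROS+, 22.5, 9.66, 25.9, 15.8 and 5.46 in ROS++ and 28.2, 43.7, 30.2 and 35.2 in ROS+++. The 3 classes formed separate steps, and in ROS+ only the first library was above 1 CPM. The limma changes of Ctsk were 3.31 ± 0.43 (adjusted p = 1.33e-05) in ROS++ and 4.54 ± 0.46 (adjusted p = 1.84e-07) in ROS+++ against ROS+. The further step of 1.23 ± 0.46 (adjusted p = 0.0421) from ROS++ to ROS+++ was lost in 9 alternatives, with an adjusted p of up to 0.309. Ctsh, an aminopeptidase of the same family, was at 2.64 to 22.2, 33.4 to 83.1 and 70.7 to 141 CPM in ROS+, ROS++ and ROS+++, a change of 2.68 ± 0.40 (adjusted p = 5.89e-05) and then 3.84 ± 0.42 (adjusted p = 5.24e-07) against ROS+. Its step of 1.16 ± 0.42 (adjusted p = 0.037) between the 2 upper classes was also lost in 9 alternatives (adjusted p of up to 0.103).

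Ctsz and Ctso rose in steps from a higher base. Ctsz (ENSMUSG00000016256, chr2:174427493-174439039, minus strand) encodes cathepsin Z, a carboxypeptidase abundant in monocytes and microglia. It was at 66.3, 69.4, 60.9, 57.6 and 53.0 CPM in ROS+, 324, 186, 210.3, 253 and 235 in ROS++ and 369.9, 429, 499 and 387 in ROS+++. No library of 1 class overlapped with another class. Its limma changes were 1.94 ± 0.14 (adjusted p = 1.51e-08), 2.75 ± 0.15 (adjusted p = 8.38e-11) and, from ROS++ to ROS+++, 0.82 ± 0.15 (adjusted p = 0.000326). Ctsz was the only cathepsin whose call from ROS++ to ROS+++ held in every alternative run. Ctso was at 19.1 to 47.1, 69.8 to 104 and 97.2 to 162 CPM in ROS+, ROS++ and ROS+++, higher by 1.36 ± 0.22 and 1.84 ± 0.23 against ROS+ (adjusted p = 0.000145 and 2.89e-06, limma).

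The broadly expressed cathepsins B, L and D, which do most of the bulk proteolysis in lysosomes, rose less. With library totals their means were highest in ROS++, but Ctsl and Ctsd were not called between ROS+++ and ROS++ (-0.28 ± 0.14, adjusted p = 0.133 and -0.21 ± 0.11, adjusted p = 0.148), and both changes were above 0 with the other scalings. Ctsb (ENSMUSG00000021939, chr14:63122462-63145923, plus strand) was at 1228, 1100.3, 1016, 1224 and 940.0 CPM in ROS+, 2445, 1823, 1854, 2275 and 2299.9 in ROS++ and 1263, 1713, 1758 and 1222 in ROS+++. ROS++ lay above both other classes without overlap, and the ranges of ROS+++ and ROS+ met at the edge. The limma changes were 0.95 ± 0.12 (adjusted p = 7.56e-06) in ROS++ and 0.42 ± 0.13 (adjusted p = 0.00796) in ROS+++ against ROS+. From ROS++ to ROS+++ Ctsb changed by -0.53 ± 0.13 (adjusted p = 0.00266) with library totals, and this call was lost with median-of-ratios and upper-quartile factors (adjusted p of up to 0.603). Ctsl was at 191 to 345, 351 to 524 and 342 to 368 CPM in ROS+, ROS++ and ROS+++, changes of 0.76 ± 0.13 (adjusted p = 0.000344) and 0.48 ± 0.14 (adjusted p = 0.00807) against ROS+. Ctsd (ENSMUSG00000007891, chr7:142375911-142388038, minus strand), the aspartic cathepsin whose promoter stretch is shown above, was at 407 to 521, 624 to 886 and 595 to 707 CPM, changes of 0.66 ± 0.10 (adjusted p = 0.000101) and 0.46 ± 0.11 (adjusted p = 0.00181). Ctsa, the serine carboxypeptidase that protects neuraminidase and beta-galactosidase in the lysosome, carries the motif at both places printed above. Its levels were 180.1 to 258, 376 to 511 and 396 to 560.3 CPM, and it rose by 0.96 ± 0.12 (adjusted p = 9.01e-06) and 1.10 ± 0.13 (adjusted p = 1.07e-06). Ctsa and Ctso were also called higher in ROS+++ against ROS++ with median-of-ratios and upper-quartile factors (adjusted p down to 0.00781 and 0.00536), though not with library totals. Part of the exons of Ctsb, Ctsa, Ctsd and Ctsl is shared with neighbouring genes in the annotation (12.8% of Ctsb with Fdft1, 10.5% of Ctsa with Pltp, 34.4% of Ctsd with a predicted gene, and 26.8% and 6.09% of Ctsl with 2 predicted genes), and without strand information reads there cannot be assigned to 1 gene.

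Per kilobase of exon the order of the cathepsin means changed between classes. In ROS+ the highest were Ctsd at 199 and Ctsb at 182 RPKM (CPM per kilobase of exon), with Ctsz at 42.6 and Ctss at 0.646. ROS++ had Ctsb at 354, Ctsd at 316, Ctsz at 168 and Ctss at 114 RPKM. In ROS+++ the means were 292 RPKM for Ctsz, 272 for Ctsd, 246 for Ctsb and 179.7 for Ctss. The SDs of Ctsz, Ctsd and Ctsb were 39.8, 20.2 and 47.2 RPKM there (n = 4), so that their order lay within the spread of libraries. The lengths used were all annotated exon bases, 6051 for Ctsb, 2351 for Ctsd, 1441 for Ctsz and 1358 for Ctss. The length of the transcripts present was not measured, so that an order of transcript levels cannot be read from these values. By mean CPM Ctsb was first in every class. The summed level of all 11 cathepsins was 2214 ± 246 CPM in ROS+ (SD, n = 5), 4610 ± 581 in ROS++ (n = 5) and 4204 ± 648 in ROS+++ (n = 4).

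**Figure D2:**
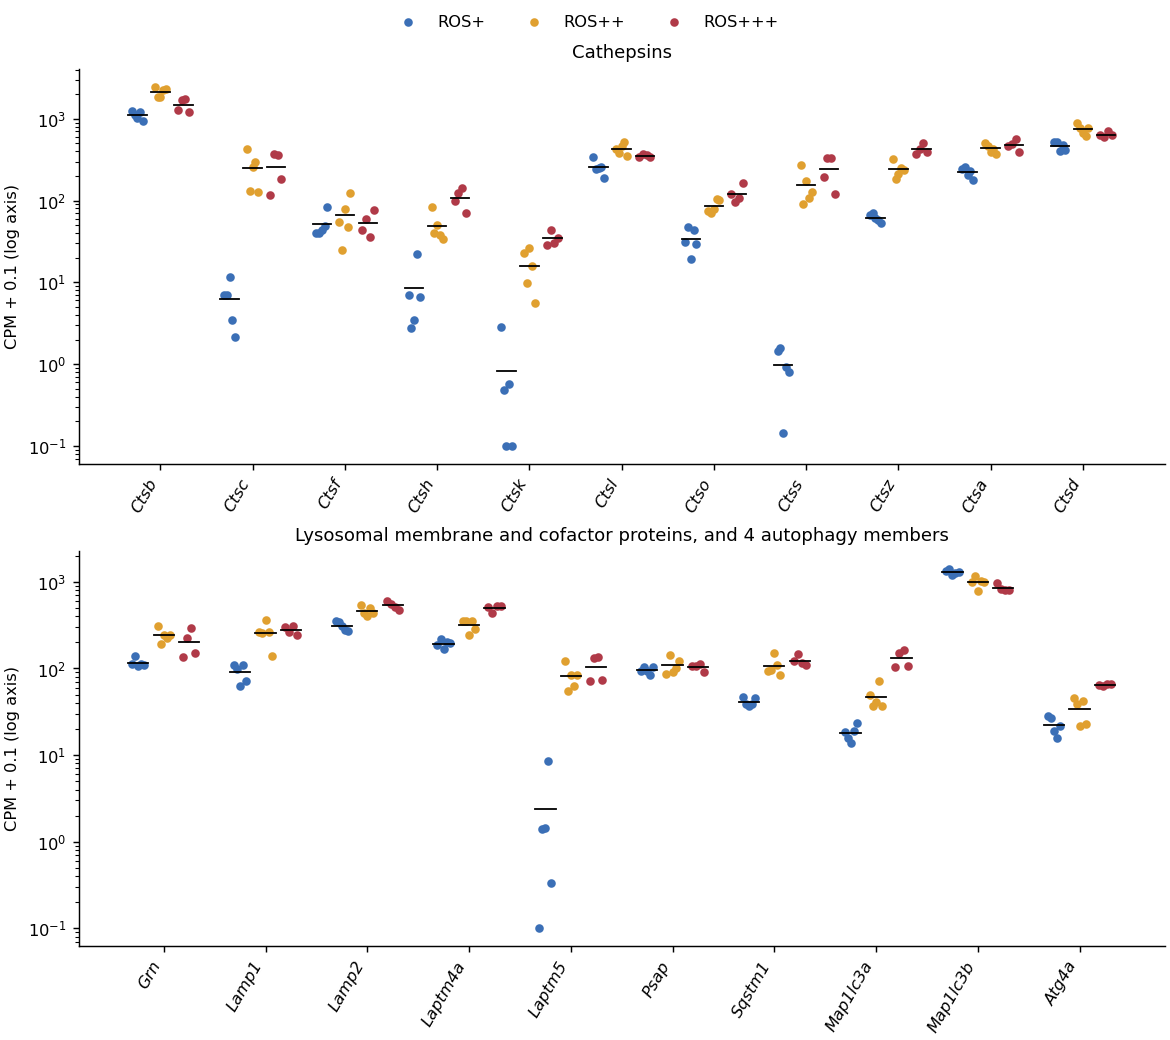
CPM + 0.1 on a log axis for the 11 cathepsins (top) and for 6 lysosomal membrane and cofactor genes and 4 autophagy genes (bottom); points are libraries, bars are class means. Ctss lies at or below 1.49 CPM in ROS+ and at or above 91.3 CPM in the other classes, and Map1lc3b is the 1 gene shown that has its highest level in ROS+.

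Like the cathepsins, most macrophage, mural, and radial glia-like and astrocyte markers were higher in ROS++ and ROS+++ than in ROS+. The 17 microglia and macrophage markers were all called higher in ROS++ and in ROS+++ against ROS+ (limma), beside 16.4% and 19.2% of all genes. The sum of these markers was 3002, 1133, 2239, 2026 and 1468 CPM in the ROS++ libraries and 1247, 3473, 2684 and 843 in the ROS+++ libraries. The ROS++ library with the highest sum had the most Ctss, and so did the 2 ROS+++ libraries with the highest sums. Divided by the marker sum of the same library, Ctss was 0.0527 to 0.0901 in ROS++ and 0.0945 to 0.154 in ROS+++, which do not overlap, and 0.00595 to 0.185 in ROS+, where Ctss and the markers rest on few reads. The mix of markers within the sum also differed. In ROS+++ replicate 1 Lyz2 was at 711 CPM, with Pf4, Mrc1 and Fcrls at 0.382, 5.58 and 4.25 CPM. The ROS++ libraries held these 3 at 51.9 to 216, 92.4 to 246 and 73.2 to 204 CPM, so that this ratio is not a level per macrophage. The same ratio was 0.0857 to 0.145 in ROS++ and 0.0927 to 0.221 in ROS+++ for Ctsc, and 0.0312 to 0.0574 and 0.0376 to 0.0870 for Laptm5. For Ctsz it was 3.16 to 12.5, 0.0939 to 0.164 and 0.123 to 0.459 in ROS+, ROS++ and ROS+++, so that ROS+ held Ctsz with little marker RNA. The 13 mural markers were likewise all called higher in both classes. Of the 12 radial glia-like and astrocyte markers, 11 were called higher in ROS++ against ROS+, and 10 higher and 2 lower in ROS+++ against ROS+. Of 8 myelinating oligodendrocyte markers, 4 were higher in ROS++ against ROS+. From ROS++ to ROS+++ these lists parted: 9 of 13 mural markers were called higher, and 5 of 12 radial glia-like and astrocyte markers lower and 0 higher. Of all genes, 9.89% were higher and 29.2% lower in that step. The part of these markers in the cathepsin changes was not tested.

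**Figure D3:**
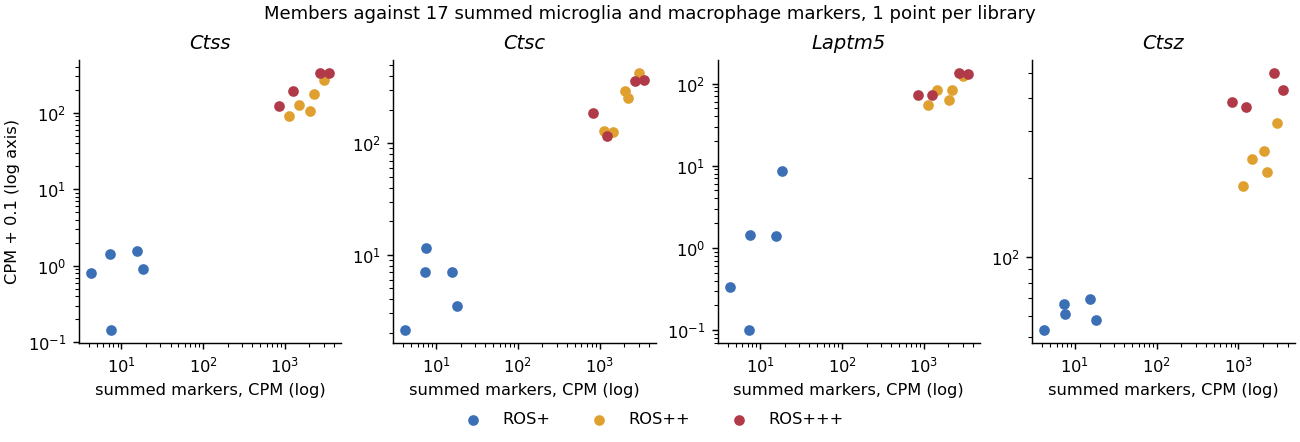
Ctss, Ctsc, Laptm5 and Ctsz (CPM + 0.1, log axis) against the summed CPM of 17 microglia and macrophage markers (log axis), 1 point per library. ROS+ libraries lie at marker sums of 4.22 to 18.2 CPM and the others at 843 CPM or more; Ctsz is above 50 CPM in every ROS+ library, unlike Ctss, Ctsc and Laptm5.

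Cathepsin inhibitors rose in the same classes. Cst3, the secreted inhibitor cystatin C, was at 661 ± 100.4 CPM in ROS+ (SD, n = 5), 4302 ± 577 in ROS++ (n = 5) and 4802 ± 878 in ROS+++ (n = 4), changes of 2.70 ± 0.12 (adjusted p = 7.76e-11) and 2.85 ± 0.13 (adjusted p = 1.28e-11) in limma. Relative to the RNA sum of all measured cathepsins in the same library, the aspartic Ctsd and serine Ctsa included, Cst3 was 0.299 on average in ROS+, 0.951 in ROS++ and 1.18 in ROS+++. Such a ratio of RNA levels does not measure inhibition. Cstb, the cytosolic cystatin B, and Serpinb6a, a serpin that blocks serine proteases including cathepsin G, were the other inhibitors measured. The gene of cathepsin G, Ctsg, was itself not analysed here. Cstb rose by 0.69 ± 0.13 and 0.92 ± 0.14 and Serpinb6a by 1.30 ± 0.20 and 2.17 ± 0.21. All 3 of 3 inhibitors were thus called higher in both comparisons, beside 16.4% and 19.2% of all genes. Serpinb6a also rose from ROS++ to ROS+++ (0.87 ± 0.21, adjusted p = 0.00288).

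Among the 6 lysosomal membrane and cofactor genes, 5 rose in ROS++ and in ROS+++ against ROS+ (83.3% each, beside 16.4% and 19.2% of all genes). Laptm4a also rose from ROS++ to ROS+++, where 9.89% of all genes were called higher. Lamp1 and Lamp2 encode the most abundant glycoproteins of the lysosomal membrane, and LAMP2A is the receptor of chaperone-mediated autophagy. Lamp1 (ENSMUSG00000031447, chr8:13159161-13175338, plus strand) was at 111, 97.9, 62.6, 109 and 70.9 CPM in ROS+, 262, 257, 365, 266 and 141 in ROS++ and 299, 263, 309.8 and 243 in ROS+++. Both ROS-rich classes lay above ROS+ and overlapped with each other, with limma changes of 1.48 ± 0.21 (adjusted p = 3.08e-05) and 1.65 ± 0.22 (adjusted p = 5.45e-06). Lamp2 was at 355, 342, 313, 279 and 272 CPM in ROS+, 535, 440.0, 402, 498 and 441 in ROS++ and 604, 554, 514 and 477 in ROS+++, smaller changes of 0.57 ± 0.11 (adjusted p = 0.000499) and 0.78 ± 0.11 (adjusted p = 1.10e-05). With median-of-ratios factors Lamp1 and Lamp2 were called higher in ROS+++ against ROS++ as well (adjusted p = 0.0463 and 0.00125). Laptm4a, a small lysosomal transmembrane protein of most tissues, went up in steps of 0.69 ± 0.12 (adjusted p = 0.000221) from ROS+ to ROS++ and 0.67 ± 0.13 (adjusted p = 0.000382) from ROS++ to ROS+++, with 168 to 218, 241 to 353 and 432 to 531 CPM in the 3 classes and no overlap between any of them.

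Laptm5, the relative of Laptm4a made in blood and immune cells, was at 0, 1.30, 1.34, 8.48 and 0.235 CPM in ROS+, 122, 55.2, 83.4, 63.2 and 84.3 in ROS++ and 72.5, 130.4, 134 and 73.4 in ROS+++. It was at or below 1.34 CPM in all ROS+ libraries but replicate 4 and changed by 5.12 ± 0.46 (adjusted p = 1.76e-07) and 5.44 ± 0.49 (adjusted p = 3.79e-08) in limma, beside the macrophage marker sums given above. Grn, the gene of progranulin, whose loss causes lysosomal storage in neurons, was at 114, 138, 105, 111 and 111 CPM in ROS+, 307, 193, 243, 226 and 242 in ROS++ and 137, 223, 296 and 153 in ROS+++. ROS++ lay above ROS+ without overlap, and the lowest ROS+++ library lay within the ROS+ range, with changes of 1.05 ± 0.18 (adjusted p = 0.000222) and 0.74 ± 0.19 (adjusted p = 0.00284). Psap, which encodes the precursor of the saposins that help hydrolases reach sphingolipids, was at 83.4 to 104, 86.2 to 143 and 90.1 to 112 CPM in ROS+, ROS++ and ROS+++. Its changes of 0.17 ± 0.14 and 0.12 ± 0.15 were not called (limma, adjusted p = 0.421 and 0.512); in ROS+++ against ROS+ it was called higher with median-of-ratios and upper-quartile factors (adjusted p down to 0.00649).

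The vacuolar proton pump did not follow the cathepsins. Of its 18 genes, 1 was called higher and 3 lower in ROS++ against ROS+ (5.56% and 16.7%, beside 16.4% and 13.2% of all genes). Of the 3 lower calls, those of Atp6v1h and Atp6v1c2 were lost in 9 and 5 alternatives (adjusted p of up to 0.111 and 0.101). Against ROS+, 9 were called lower in ROS+++ and the other 9 were not called, 50.0% beside 40.0% of all genes, with a median of -0.48 beside -0.44 for all genes. Against ROS++, 9 were called lower in ROS+++ (50.0%, beside 29.2% of all genes), with a median of -0.49 beside -0.34. The calls of Atp6v0a2, Atp6v0d1, Atp6v0e and Atp6v1a against ROS++ were lost with both other scalings, and that of Atp6v1b2 with median-of-ratios factors. Under median-of-ratios factors Atp6v1e1, Atp6v1f and Atp6v1g1 were called higher in ROS+++ than in ROS++. With median-of-ratios factors 7 of the 18 were called lower and 3 higher in ROS+++ against ROS+, beside 25.9% and 26.5% of all genes. With upper-quartile factors 8 were lower and 1 higher, beside 30.1% and 23.5% of all genes. The summed level of the 18 genes was 3603 ± 143 CPM in ROS+ (SD, n = 5), 3299 ± 317 in ROS++ (n = 5) and 2205 ± 82.4 in ROS+++ (n = 4). Neuronal precursor markers went from at least 11461 CPM in ROS+ to at most 205 CPM in ROS+++ beside these changes, and their part was not tested.

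In the V0 sector the lower calls centred on 3 genes that kept their call under every scaling. Atp6v0e2 (ENSMUSG00000039347, chr6:48537615-48541801, plus strand), the brain-enriched form of the small e subunit and the pump gene with the highest CPM in ROS+, was at 799, 683, 672, 648 and 639 CPM in ROS+, 469, 640.4, 411, 361 and 769.8 in ROS++ and 219.7, 162, 88.8 and 177 in ROS+++. Its ROS+++ libraries lay below both other classes, which overlapped. The limma changes were -0.43 ± 0.22 (adjusted p = 0.154) in ROS++, called only without ROS++ replicate 5 (adjusted p = 0.0444), -2.15 ± 0.23 (adjusted p = 5.68e-07) in ROS+++ against ROS+, and -1.72 ± 0.23 (adjusted p = 2.17e-05) in ROS+++ against ROS++. Atp6v0b (ENSMUSG00000033379, chr4:117884326-117887333, minus strand), a subunit of the proton-carrying ring, was at 446, 442, 329, 417 and 379 CPM in ROS+, 389.8, 443, 346, 349 and 434 in ROS++ and 183, 174, 181 and 135 in ROS+++. Its change between ROS+ and ROS++ of -0.04 ± 0.12 was not called, and it was lower in every ROS+++ library (-1.26 ± 0.12, adjusted p = 1.39e-07 against ROS+). Atp6v0a1, the a subunit form of synaptic vesicles and neuronal lysosomes, was at 107, 118, 145, 121 and 159 CPM in ROS+, 82.1, 83.5, 106, 129.6 and 80.5 in ROS++ and 39.7, 57.2, 34.7 and 58.5 in ROS+++. It fell by 1.46 ± 0.19 in ROS+++ against ROS+ (limma, adjusted p = 4.73e-06).

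The remaining V0 genes moved less. Atp6v0e, the widely expressed e subunit with the promoter motif shown above, was at 312 to 426, 388 to 601 and 302 to 365 CPM in ROS+, ROS++ and ROS+++. It was the 1 pump gene called higher in ROS++ (0.37 ± 0.12, adjusted p = 0.0229), which was lost without ROS+ replicate 3 or 5 or without ROS++ replicate 1 or 2, with an adjusted p of up to 0.0691. Atp6v0d1, also with the motif, was at 102 to 134, 86.0 to 146 and 63.5 to 98.6 CPM. Its lower call in ROS+++ against ROS+ (-0.51 ± 0.17, adjusted p = 0.013) was lost with both other scalings and without ROS+++ replicate 1 (adjusted p of up to 0.722). Atp6v0a2, Atp6v0c and Atp6v0c-ps2 were not called in either comparison with ROS+. Atp6v0c-ps2 is a processed copy of Atp6v0c at 1.41 to 2.57 CPM in ROS+, and reads of the pair may have been shared in counting.

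In the V1 sector the lower calls included forms of limited tissue range. Atp6v1g2 (ENSMUSG00000024403, chr17:35233660-35238767, plus strand), the G subunit found mainly in neurons, was at 25.3, 32.7, 28.9, 37.5 and 34.5 CPM in ROS+, 11.9, 40.4, 25.9, 26.5 and 23.8 in ROS++ and 5.97, 3.29, 2.33 and 2.28 in ROS+++. All 4 ROS+++ libraries lay below all others, and the change of -2.93 ± 0.33 (adjusted p = 6.46e-07) against ROS+ was the lowest of any member. ROS++ overlapped with ROS+ (-0.38 ± 0.31, adjusted p = 0.395). Atp6v1g1, the G subunit of most tissues and the V1 gene with the highest mean CPM, was at 242 to 274, 235 to 279 and 201 to 272 CPM; its change of -0.13 ± 0.11 (adjusted p = 0.294) in ROS+++ against ROS+ was not called with library totals and became 0.31 (adjusted p = 0.0301) with median-of-ratios factors. Atp6v1b2, the B subunit of most tissues, was at 204, 212, 211, 224 and 201 CPM in ROS+, 152, 110.2, 127, 137 and 219 in ROS++ and 81.8, 97.6, 68.6 and 69.4 in ROS+++. It fell in both classes against ROS+, with -0.53 ± 0.16 (adjusted p = 0.0153) and -1.41 ± 0.17 (adjusted p = 1.15e-06), and ROS++ replicate 5 alone lay within the ROS+ range. Between ROS+++ and ROS++ it changed by -0.88 ± 0.17 (adjusted p = 0.000443), with an adjusted p of 0.0502 under median-of-ratios factors.

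Atp6v1a, the ATP-splitting subunit and a carrier of the promoter motif, was at 201 to 254, 144 to 201 and 90.0 to 152 CPM in ROS+, ROS++ and ROS+++. It was lower in ROS+++ than in ROS+ (-0.85 ± 0.15, adjusted p = 8.21e-05) under every scaling. Atp6v1h, the regulatory H subunit, was at 228 to 345, 182 to 308 and 163 to 185 CPM, and its change of -0.79 ± 0.15 (adjusted p = 0.000277) was lost with median-of-ratios factors (adjusted p = 0.0637). Atp6v1c2, a C subunit of kidney and lung, was scarce at 3.24, 1.44, 2.10, 1.83 and 2.49 CPM in ROS+, 0.681, 1.07, 1.11, 0.767 and 0.109 in ROS++ and 0.191, 0.147, 0 and 0.236 in ROS+++. ROS+++ was at or near 3 reads per library, so that the change of -1.47 ± 0.30 depends on the pseudocount and no fold is given. Atp6v1c1, Atp6v1d, Atp6v1e1 and Atp6v1f were not called in any comparison with library totals.

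**Figure D4:**
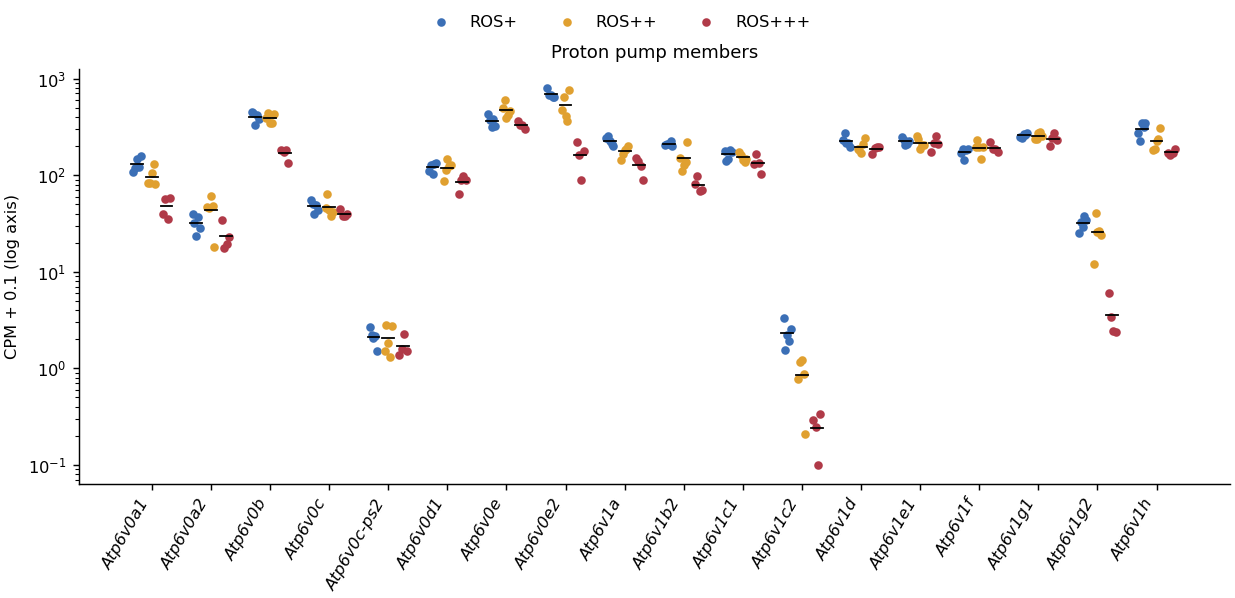
CPM + 0.1 on a log axis for the 18 proton pump genes; points are libraries, bars are class means. Atp6v0e2, Atp6v0b, Atp6v0a1, Atp6v1b2 and Atp6v1g2 are lower in ROS+++ than in ROS+ under every scaling, whereas Atp6v1g1 and Atp6v1e1 overlap between all classes with library totals and were called higher in ROS+++ with median-of-ratios factors.

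Autophagy genes moved in few cases between ROS+ and ROS++. Of 24 (the initiation, conjugation, ATG8 and receptor genes), 2 were called higher and 2 lower in ROS++, 8.33% each way beside 16.4% and 13.2% of all genes. From ROS+ to ROS+++ 3 were called higher and 7 lower, beside 40.0% of all genes called lower, with a median of -0.26 beside -0.44. With median-of-ratios factors 5 of the 24 were called higher and the 7 lower calls were lost, beside 26.5% of all genes higher and 25.9% lower. With upper-quartile factors 4 were higher and 3 lower, beside 23.5% and 30.1% of all genes. Against ROS++, 2 were called higher and 1 lower in ROS+++ (8.33% and 4.17%, beside 9.89% and 29.2% of all genes).

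Few genes that start the autophagosome were called with library totals. Among 7 genes of initiation, nucleation and lipid supply, limma called 0 in ROS++ against ROS+, with 0 at an unadjusted p under 0.05 and 0 in limma-voom, and 1 in ROS+++ against ROS+. Of all genes, 29.6% and 59.2% were called in these comparisons. Atg14 was called lower in ROS++ only when replicate 5 of that class, its highest library at 62.0 CPM, was left out (limma, adjusted p = 0.0283). The 0 calls in ROS++ thus depend on that library. Becn1, the scaffold of the lipid kinase that nucleates the membrane, was at 38.2, 41.8, 38.8, 43.5 and 45.6 CPM in ROS+, 34.8, 20.6, 45.3, 23.3 and 62.3 in ROS++ and 40.8, 30.9, 36.1 and 27.3 in ROS+++. The ROS++ libraries spread over the widest range, and the changes of -0.27 ± 0.25 (adjusted p = 0.47) and -0.31 ± 0.27 (adjusted p = 0.341) were not called. Becn1 shares 43.9% of its exon bases with Cntd1 on the other strand, which these libraries cannot separate. Atg13, a subunit of the ULK1 kinase complex and the role's highest gene by mean CPM, was at 59.3 to 87.5, 46.8 to 96.6 and 64.7 to 94.8 CPM in ROS+, ROS++ and ROS+++. It was called higher in ROS+++ with median-of-ratios factors against ROS+ (adjusted p = 0.0155), and with both other scalings against ROS++ (adjusted p down to 0.00779). Atg2b, a lipid transfer protein, was the 1 gene called (-0.78 ± 0.22, adjusted p = 0.00603), and lost its call with both other scalings (adjusted p of up to 0.221).

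Of the 11 genes of ATG8 conjugation, 1 was called higher and 4 lower in ROS+++ against ROS+ with library totals. These were 9.09% and 36.4%, beside 19.2% and 40.0% of all genes. With median-of-ratios factors the higher gene alone was called, beside 26.5% of all genes higher and 25.9% lower. This gene, Atg4a (ENSMUSG00000079418, chrX:140956907-141164270, plus strand), encodes a protease that trims ATG8 proteins before their attachment and releases them afterwards. It was at 28.0, 26.4, 18.9, 15.7 and 21.5 CPM in ROS+, 45.5, 38.8, 21.4, 42.5 and 22.5 in ROS++ and 65.1, 62.5, 66.0 and 66.0 in ROS+++. The 4 ROS+++ libraries were nearly equal and lay above all others. Its limma changes were 0.57 ± 0.24 (adjusted p = 0.0796) in ROS++, called only without ROS++ replicate 3 or 5 (adjusted p down to 0.0309), 1.54 ± 0.25 (adjusted p = 4.41e-05) in ROS+++ against ROS+ and 0.97 ± 0.25 (adjusted p = 0.00484) against ROS++. Its relative Atg4c went the other way between ROS+, at 45.0 to 56.6 CPM, and ROS+++, at 18.7 to 31.6 CPM (-0.94 ± 0.23, adjusted p = 0.00227), a call lost with median-of-ratios factors (adjusted p = 0.0832), and Atg4b and Atg4d were not called with library totals; without ROS+++ replicate 3, Atg4b was called in ROS+++ against ROS+ (adjusted p = 0.0179).

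Atg12, the ubiquitin-like protein that joins ATG5, was at 115, 124, 163, 153 and 152 CPM in ROS+, 61.1, 61.1, 87.0, 81.6 and 149 in ROS++ and 58.4, 58.5, 86.7 and 96.1 in ROS+++. It fell in ROS++ (-0.75 ± 0.22, adjusted p = 0.0155), where replicate 5 alone lay within the ROS+ range, and in ROS+++ (-0.93 ± 0.23, adjusted p = 0.00234), a call lost with median-of-ratios factors (adjusted p = 0.0831). Atg7, the enzyme that activates both ATG8 and ATG12, was at 39.1 to 69.4, 46.7 to 66.4 and 22.9 to 46.1 CPM in ROS+, ROS++ and ROS+++. Atg3, which transfers ATG8 to lipid and has the promoter motif shown above, was at 22.2 to 36.8, 15.7 to 26.9 and 10.4 to 22.7 CPM. Their lower calls in ROS+++ against ROS+ (-0.70 ± 0.21 and -0.77 ± 0.27) were lost with both other scalings, with adjusted p of up to 0.295 and 0.266.

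Among the ATG8 proteins, the 2 LC3 genes went in opposite directions. Map1lc3a (ENSMUSG00000027602, chr2:155276297-155278073, plus strand) was at 18.4, 15.8, 13.8, 18.8 and 23.3 CPM in ROS+, 49.9, 36.4, 40.8, 72.5 and 36.9 in ROS++ and 104, 153, 161 and 108 in ROS+++. Every library of a class lay above every library of the class before. The limma changes were 1.32 ± 0.22 (adjusted p = 0.000171), 2.79 ± 0.23 (adjusted p = 1.44e-08) and, between ROS++ and ROS+++, 1.48 ± 0.23 (adjusted p = 7.59e-05). Map1lc3b (ENSMUSG00000031812, chr8:121590361-121598760, plus strand), the form most used as a marker of autophagosomes, was at 1342, 1398, 1207, 1278 and 1297 CPM in ROS+, 991, 1176, 789, 1035 and 1011 in ROS++ and 977, 822, 811 and 811 in ROS+++. All ROS++ and ROS+++ libraries lay below all ROS+ libraries, with changes of -0.39 ± 0.09 (adjusted p = 0.00403) and -0.61 ± 0.10 (adjusted p = 4.78e-05), of which the call in ROS+++ was lost with median-of-ratios factors (adjusted p = 0.224). Per kilobase of exon Map1lc3b stood at 174, 133 and 114 RPKM in ROS+, ROS++ and ROS+++, and Map1lc3a at 15.3, 40.0 and 111 RPKM. The per-length levels of the pair thus came close in ROS+++, whereas their mean CPM there were 855 for Map1lc3b and 131 for Map1lc3a. The lengths used were all annotated exon bases, 7517 for Map1lc3b and 1181 for Map1lc3a. The length of the transcripts present was not measured, so that near-equal levels cannot be read from these values. Gabarap was at 256 to 326, 281 to 338 and 311 to 342 CPM and was not called with library totals, but was called higher in ROS+++ with both other scalings, against ROS+ (adjusted p down to 8.47e-05) and against ROS++ (adjusted p down to 0.00284). Gabarapl1 was at 83.8 to 104 CPM in ROS+ and 62.3 to 75.3 in ROS+++, a change of -0.39 ± 0.14 (adjusted p = 0.0212) that turned to 0.04 (adjusted p = 0.826) with median-of-ratios factors. It shares 28.3% of its exon bases with a gene on the other strand.

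Sqstm1 (ENSMUSG00000015837, chr11:50199366-50210827, minus strand) encodes p62, a receptor that links ubiquitinated cargo to ATG8 proteins and a target of the NRF2 oxidative stress response. It was at 46.4, 38.5, 37.1, 39.2 and 46.0 CPM in ROS+, 94.4, 95.0, 151, 111 and 83.4 in ROS++ and 121, 147, 116 and 111 in ROS+++. Both ROS-rich classes lay above ROS+ without overlap and overlapped with each other. The limma changes against ROS+ were 1.32 ± 0.16 (adjusted p = 5.51e-06) and 1.55 ± 0.17 (adjusted p = 4.55e-07), and between ROS+++ and ROS++ 0.23 ± 0.17 (adjusted p = 0.297), which was called with median-of-ratios and upper-quartile factors alone (adjusted p down to 0.00501). Sqstm1 shares 17.3% of its exon bases with Mrnip on the other strand. The transcription factors that act on lysosomal genes were scarce. Tfeb was at 2.53, 1.39, 3.66, 6.31 and 2.11 CPM in ROS+, 2.67, 1.5, 4.18, 3.02 and 0.546 in ROS++ and 6.30, 4.71, 0.619 and 3.62 in ROS+++, and Tfe3 at 10.2 to 17.5, 8.90 to 33.8 and 4.49 to 27.5 CPM. The classes overlapped for both, and limma called 0 of the 2 in every comparison, with 0 at an unadjusted p under 0.05 and 0 in limma-voom. Their protein activity depends on movement into the nucleus, which RNA levels do not show.

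Ratios within a library do not depend on the scaling between libraries. The cathepsin sum over the proton pump sum was 0.613 ± 0.050 in ROS+ (SD, n = 5), 1.41 ± 0.252 in ROS++ (n = 5) and 1.91 ± 0.269 in ROS+++ (n = 4). ROS+ lay at 0.537 to 0.654 and apart from the others, whereas ROS++ at 1.13 to 1.76 and ROS+++ at 1.63 to 2.22 overlapped. Map1lc3a over Map1lc3b was 0.0113 to 0.0180, 0.0309 to 0.0701 and 0.106 to 0.199 in ROS+, ROS++ and ROS+++, with no overlap between classes. Atp6v1g2 over Atp6v1g1 was 0.101 to 0.144, 0.0507 to 0.172 and 0.00859 to 0.0296, so that ROS+++ alone stood apart. Atp6v0e2 over Atp6v0e was 1.69 to 2.16, 0.855 to 1.68 and 0.269 to 0.602 in the 3 classes, which formed separate steps. Atp6v0a1 over Atp6v0a2 was 2.70 to 6.26, 1.75 to 4.45 and 1.15 to 3.28, where all classes overlapped.

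**Figure D5:**
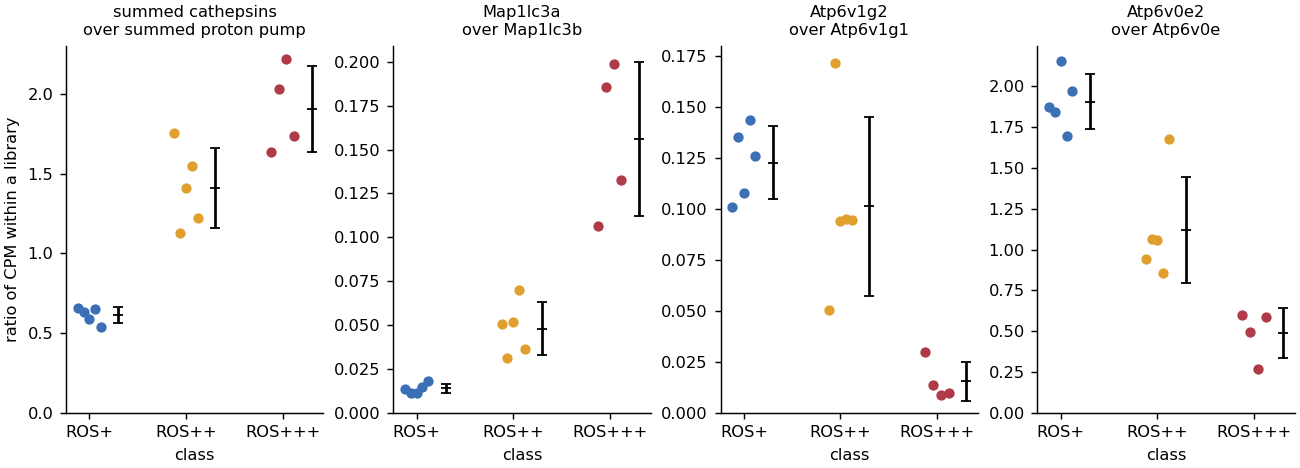
Ratios of CPM within each library for summed cathepsins over summed pump genes, Map1lc3a over Map1lc3b, Atp6v1g2 over Atp6v1g1 and Atp6v0e2 over Atp6v0e; points are libraries, and bars give the mean ± SD of the class. The 3 classes do not overlap for Map1lc3a over Map1lc3b and for Atp6v0e2 over Atp6v0e, and ROS+++ lies at or below 0.0296 for Atp6v1g2 over Atp6v1g1.

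Other genes of the same pathways were counted from lists set with the members. Of 35 other lysosomal hydrolases, 7 were called higher and the rest not called in ROS++ against ROS+ (20% higher, beside 16.4% of all genes). In ROS+++ against ROS+, 11 were higher and 8 lower (31.4% and 22.9%, beside 19.2% and 40.0% of all genes), or 15 and 3 with median-of-ratios factors (42.9% and 8.57%, beside 26.5% and 25.9% of all genes). Lgmn, the asparaginyl endopeptidase that processes cathepsins, rose between ROS+ and ROS++, from 168 ± 12.6 to 384 ± 73.9 CPM (1.17 ± 0.16, adjusted p = 2.42e-05), and Dnase2a, the acid DNase, from 9.37 ± 3.43 to 22.9 ± 7.21 CPM (1.21 ± 0.34, adjusted p = 0.0108). Arsb, a sulfatase, fell from 19.1 ± 3.11 to 0.953 ± 0.948 CPM between ROS+ and ROS+++ (-3.47 ± 0.35, adjusted p = 1.60e-07), while the glycosidases Manba and Hyal1 rose by 2.23 ± 0.38 (adjusted p = 7.03e-05) and 1.60 ± 0.39 (adjusted p = 0.0021). Gm2a, the activator of ganglioside breakdown, fell from 1419 ± 308 CPM in ROS++ to 505 ± 86.8 in ROS+++ (-1.48 ± 0.15, adjusted p = 9.30e-07). Against ROS++, 3 of the hydrolases were higher in ROS+++ and 10 lower with library totals (8.57% and 28.6%, beside 9.89% and 29.2% of all genes), and 9 higher and 4 lower with median-of-ratios factors (25.7% and 11.4%, beside 18.7% and 17.1%). Myelinating oligodendrocyte markers also differed between these classes, with 7 of 8 called lower in ROS+++ against ROS++, and their part in such falls was not tested.

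Among 21 other lysosomal membrane proteins, 7 were called higher in ROS++ against ROS+ (33.3%, beside 16.4% of all genes). From ROS+ to ROS+++ 5 were higher and 5 lower (23.8% each way, beside 19.2% and 40.0% of all genes), or 7 and 3 with median-of-ratios factors (33.3% and 14.3%, beside 26.5% and 25.9%). Cd68, the macrophage scavenger receptor, was at 1.07 ± 0.977 CPM in ROS+, 134 ± 61.8 in ROS++ and 117 ± 72.8 in ROS+++. Slc11a1, the metal transporter of phagocytes, was at 0.809 ± 0.690, 17.1 ± 12.0 and 32.1 ± 5.64 CPM. Both were called higher in both classes against ROS+. Litaf, a regulator of endosomal sorting, rose by 1.26 ± 0.17 (adjusted p = 1.57e-05) and 1.81 ± 0.18 (adjusted p = 1.26e-07). Cd68 and Slc11a1 stand beside the same macrophage marker sums as Ctss. Npc1, the cholesterol exporter of late endosomes, was at 86.8 ± 15.1, 102 ± 16.4 and 32.8 ± 6.69 CPM in ROS+, ROS++ and ROS+++, a fall from ROS++ to ROS+++ of 1.61 ± 0.18 (limma, adjusted p = 3.15e-06). Tmem192 and Abca2 were also lower in ROS+++ than in ROS++ (-1.21 ± 0.41, adjusted p = 0.0246 and -1.05 ± 0.29, adjusted p = 0.00843), calls that were lost with median-of-ratios factors (adjusted p = 0.0722 and 0.0852).

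Of 34 other autophagy genes, 4 were called higher and 10 lower in ROS++ against ROS+ (11.8% and 29.4%, beside 16.4% and 13.2% of all genes). From ROS+ to ROS+++ 1 was higher and 17 lower (2.94% and 50.0%, beside 19.2% and 40.0%), or 6 and 5 with median-of-ratios factors (17.6% and 14.7%, beside 26.5% and 25.9%). Vamp8, a SNARE that fuses autophagosomes and secretory granules with their targets, was the 1 called higher in ROS+++, at 9.98 ± 4.57, 76.9 ± 32.7 and 163 ± 18.7 CPM in ROS+, ROS++ and ROS+++ (4.01 ± 0.31, adjusted p = 5.19e-09 against ROS+). Ulk1, the kinase that starts autophagy, was lower in ROS++ (-1.19 ± 0.28, adjusted p = 0.00394), as was the receptor Calcoco1 (-1.13 ± 0.27, adjusted p = 0.00441). Vps39 and Vps41, subunits of the HOPS tether that brings vesicles to the lysosome, fell in ROS+++ against ROS+ by 1.35 ± 0.28 and 1.34 ± 0.16 (limma, adjusted p = 0.000513 and 1.93e-06). Rubcn, which holds autophagosome maturation back, and Snap29, another fusion SNARE, were lower in ROS+++ than in ROS++ (-1.03 ± 0.27, adjusted p = 0.00497 and -0.96 ± 0.33, adjusted p = 0.0287), and both calls were lost with median-of-ratios factors (adjusted p = 0.0606 and 0.182).

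Of 22 genes of mTORC1, the nutrient-sensing kinase complex at the lysosome, and of related transcription factor control, 3 were called higher and 2 lower in ROS++ against ROS+ (13.6% and 9.09%, beside 16.4% and 13.2% of all genes). From ROS+ to ROS+++ 3 were higher and 8 lower (13.6% and 36.4%, beside 19.2% and 40.0%), or 6 and 6 with median-of-ratios factors (27.3% each, beside 26.5% and 25.9%), shares near those of all genes. Deptor, an mTOR inhibitor, and Tsc1, a brake on mTORC1, were lower in ROS++ (-1.49 ± 0.49, adjusted p = 0.0297 and -1.06 ± 0.20, adjusted p = 0.000475), and Rragc, a Rag GTPase, was higher (1.08 ± 0.36, adjusted p = 0.0315). The Rag GTPases Rragb and Rragd were lower in ROS+++ against ROS+, from 6.46 ± 2.26 to 0.768 ± 1.16 CPM and from 26.1 ± 6.64 to 6.73 ± 5.55 CPM (-2.21 ± 0.47, adjusted p = 0.000562 and -2.02 ± 0.38, adjusted p = 0.000182). Mlst8, a core subunit, was at 20.6 ± 8.07 CPM in ROS++ and 8.33 ± 1.36 in ROS+++ (-1.14 ± 0.31, adjusted p = 0.00663), a call lost with median-of-ratios factors (adjusted p = 0.0628).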

How the data were processed

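RNA from 14 sorted samples (5 ROS+, 5 ROS++, 4 ROS+++) was reverse transcribed from a poly-dT primer with template switching and amplified over 12 cycles, per the labels' protocols, with no molecular identifiers and no record of strand. The authors deposited log2 values for 15119 genes. STAR, edgeR and mm10 are named, with no role, in the submitters' processing notes; versions, counting and annotation: not given in the sources used here. These deposited log2 values share a lowest value of -4.36 and sum to 1000736 on the linear scale, the form of log2 CPM with a prior (1 read at the mean library size), and 100% of values were whole reads within 0.001 reads. All 14 columns were used.

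CPM were recomputed from these reads and library totals. Symbols and GRCm38 coordinates came from GENCODE M21 (15060 identifiers matched), which may differ from the authors' annotation; promoters came from RefSeq. Genes with at least 1 CPM in at least 4 libraries (15102) entered 1 limma-trend fit (limma 3.58.1, statmod 1.5.0, R 4.3.3, robust) on log2(CPM + 1) with a mean per class, and changes are on that scale, which understates low genes. Calls use Benjamini-Hochberg adjusted p under 0.05 over all tested genes. The deposited unit is log2, so limma and no count model was used. This filter removed no member. Ctss, Ctsk, Laptm5 and Atp6v1c2 passed it through the classes in which they were high. So did macrophage markers such as Pf4, Fcrls and Lyz2, which were under 1 CPM in every ROS+ library.

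The members, the other pathway lists, the marker lists and the alternatives were chosen with earlier results of these data known. Members given in detail were, per role and comparison, the 3 called members with the largest change and no overlap of libraries, the role's highest member, and 12 fixed genes; in the other lists, the 3 with the largest change. A hydrolase that this rule would name is not reported here. Others named (Ctsf, Ctsh, Ctso, several subunits and ATG genes) complete the account of the members. Replicates are numbered in series order. The 26 replicate pairs differed by 33.7 to 161 in chi-square per degree of freedom, far beyond counting error. A floor of 3 reads covers counting error only (95% confidence). The fit was tested on simulated data. Alternatives were 2 other scalings, limma-voom, a pseudocount of 0.25 CPM, the deposited log2 values, other filters, no robust step, fits of 2 classes and omission of each library.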

Additional observations from a re-analysis of the deposited data

Results flagged for a closer look

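Single libraries that stood apart from the rest of their class were looked for in the 32 members given in detail, over 96 groups of 4 or 5 libraries, with Dixon's test at the 95% level. It found 5, and chance alone marks about 1 group in 20. Atp6v0e2 was at 799 CPM in ROS+ replicate 1, with the other ROS+ libraries at 639 to 683. Ctsk was at 2.73 CPM in ROS+ replicate 1, with the others at 0 to 0.469. Grn was at 138 CPM in ROS+ replicate 2, with the others at 105 to 114. Laptm5 was at 8.48 CPM in ROS+ replicate 4, with the others at 0 to 1.34, and that library also had the highest sum of microglia and macrophage markers in ROS+, 18.2 CPM. Map1lc3b was at 977 CPM in ROS+++ replicate 1, with the others at 811 to 822.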

How the results depend on the processing

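Of 74 calls of members in the 3 comparisons, 53 were kept under all alternatives, 21 were lost under at least 1, and 31 were gained under at least 1. Scaling moved the ROS+++ comparisons most. With median-of-ratios factors, 7 members were lower in ROS+++ against ROS+, and 17 were higher and 4 lower against ROS++; with upper-quartile factors the counts against ROS++ were 12 and 5. The median change of members, -0.0138, -0.13 and -0.15 in the 3 comparisons with library totals, then turned positive: 0.0102 and 0.0024 in ROS++ against ROS+, 0.31 and 0.16 in ROS+++ against ROS+, and 0.26 and 0.12 in ROS+++ against ROS++, with median-of-ratios and upper-quartile factors. Of all genes, 3912 (25.9%) were lower in ROS+++ against ROS+, and 2825 (18.7%) higher and 2587 (17.1%) lower against ROS++, with median-of-ratios factors. With upper-quartile factors 14.8% of all genes were higher and 20.1% lower against ROS++. Under median-of-ratios factors Atp6v1e1 changed by 0.36 and 0.39 and Atp6v1g1 by 0.31 and 0.31 in ROS+++ against ROS+ and ROS++, and Gabarapl1 by 0.0423 against ROS+. Leaving out 1 library at a time gave 3 to 8 members lower in ROS++ against ROS+, and member medians of -0.0302 to 0.0254 there, -0.19 to -0.0548 in ROS+++ against ROS+ and -0.17 to -0.0673 against ROS++. The cause of these shifts was not tested. No paired analysis was possible because the labels give each library a number of its own and none that classes share. Whether libraries of different classes came from the same sort is not given, and the fit treated all libraries as independent. Equal replicate numbers in different classes do not mark a shared sort. A change in genes under 0.119 to 0.236 CPM, 3 reads, could not be resolved at this depth.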
